A study of Mus musculus with 11 samples.

Results

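The libraries compared here lie at opposite corners of a design of 2 factors: hematopoietic stem cells that carried CD41 on their surface, taken after platelet depletion, and stem cells without CD41 from control mice. Membership was set by their labels, and they make up 6 of the 11 libraries of the series, 3 in each group. All cells came from the bone marrow of C57BL/6 mice and were sorted as Lin- c-Kit+ Sca-1+ CD48- CD150+, and each library was made from the RNA of 1000 cells, with cells from 3 mice pooled per sample and samples described as biological replicates. The control group had received control rabbit serum, and the other group was collected 24 h after platelet depletion. The labels do not give the agent used for depletion, the age or sex of the mice, or when the control serum was given. The other 5 libraries, 2 of control CD41+ cells and 3 of depleted CD41- cells, entered the same model and are used below only to split the difference into its parts.

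Hematopoietic stem cells are mostly quiescent and renew the blood through progenitors. CD41 is the integrin alpha IIb chain, the product of Itga2b; it pairs with integrin beta 3 on megakaryocytes and platelets, and a fraction of stem cells already carries it together with other megakaryocyte transcripts. Acute loss of platelets raises the demand for megakaryocytes, and stem cells can answer by entering the cell cycle. Because the groups differ in both factors, their difference on the log2 scale is the sum of the CD41 difference averaged over treatments and the depletion response averaged over the CD41 fractions. Depletion itself and CD41 status itself cannot be told apart from this comparison alone; the averages over all 4 groups separate them.

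The 6 libraries held between 974196 and 4984950 gene counts. The shallowest was depleted CD41+ replicate 1. Levels below are in CPM, which puts the counts of every library on one total after TMM normalisation; in that library 3 counts correspond to 3.34 CPM, and in depleted CD41+ replicate 2, the deepest of the 6, to 0.588 CPM. Across genes, the log2 CPM of libraries of the same group correlated between 0.901 and 0.945, and those of opposite groups between 0.803 and 0.901; genes are not independent replicates, so these values only describe the libraries. Of the genes that define the sort, Itga2b had 98.5, 46.1 and 62.5 CPM in the control CD41- libraries and 219, 246 and 170 CPM in the depleted CD41+ libraries. It was higher in all 3 depleted CD41+ libraries, in the direction of the CD41 label (log2 fold change 1.62, SE 0.24, adjusted p = 0.000894). Ly6a, which encodes Sca-1, fell by 2.17 on the log2 scale (SE 0.35, adjusted p = 0.00182), although both groups were gated as positive for it. Slamf1 (CD150), Cd48 and Kit did not pass the test, with log2 fold changes of 0.79, 1.22 and -1.22.

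Of 13448 genes tested, 1895 (14.1%) differed between depleted CD41+ and control CD41- stem cells at an adjusted p below 0.05, 1052 higher (7.82%) and 843 lower (6.27%) in the depleted CD41+ cells. Adjusted p-values throughout are from edgeR's quasi-likelihood test with Benjamini-Hochberg adjustment over all genes tested, and a positive log2 fold change means a higher level in the depleted CD41+ cells. Among the called genes, 497 were more than 2-fold higher and 615 more than 2-fold lower. The median over all genes was -0.06, with quartiles of -0.57 and 0.43. The libraries of the groups did not overlap for 4232 genes (31.5%), and for 1851 of the called ones. In bulk RNA from sorted cells, fewer cells of a type and less RNA per cell cannot be told apart. Without control CD41- replicate 3 the count was 1120, without depleted CD41+ replicate 3 it was 1202, and with a neutrophil score as a covariate, an alternative chosen after seeing the data, it was 1182.

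**Figure D1:**
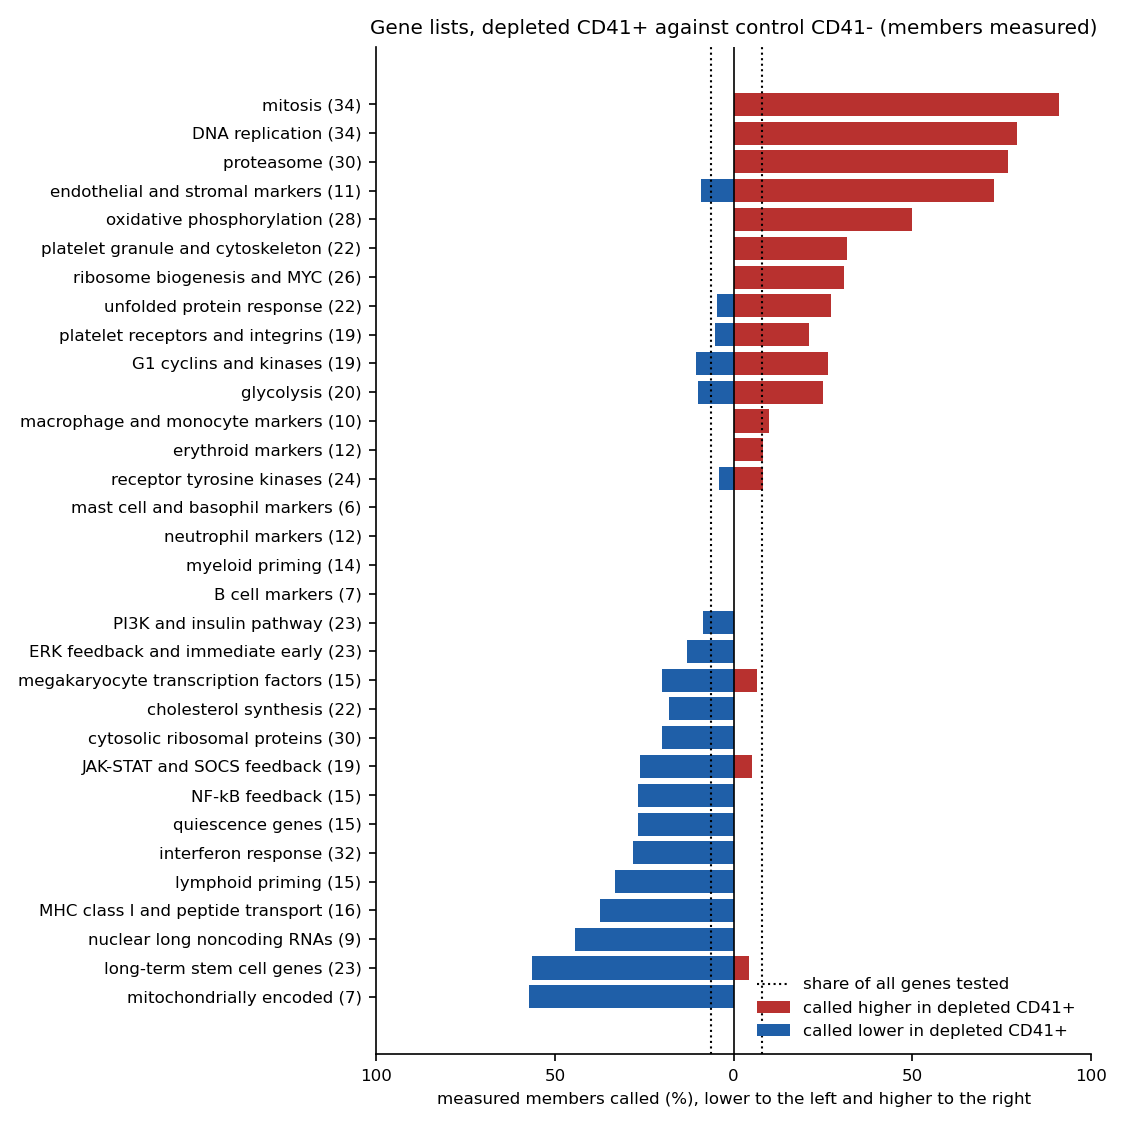
Share of measured members of each gene list that passed the test (horizontal axis, percent), higher in depleted CD41+ stem cells to the right (red) and lower to the left (blue); dotted lines mark the shares over all genes tested, 7.82% higher and 6.27% lower. Lists with at least 5 measured members are drawn, with their number in brackets; mitosis, DNA replication and proteasome lie at the top with 31, 27 and 23 members higher, and long-term stem cell genes near the bottom with 13 of 23 lower.

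Genes of mitosis made up the list with the largest share of calls: 31 of 34 measured members rose and none fell, with a median log2 fold change of 1.70. Cdca8, a subunit of the chromosomal passenger complex that corrects chromosome attachment, had 55.6, 74.1 and 71.0 CPM in the control CD41- libraries and 264, 260 and 248 CPM in the depleted CD41+ libraries. The lowest depleted CD41+ library was more than 3 times the highest control library (log2 fold change 1.94, SE 0.16, adjusted p = 3.87e-05). Ube2c, the ubiquitin-conjugating enzyme of the anaphase-promoting complex, went from 81.7, 101 and 70.8 CPM to 354, 343 and 306 CPM (log2 fold change 1.98, SE 0.18, adjusted p = 5.92e-05). Ccnb1, the cyclin that activates Cdk1 at entry into mitosis, had 93.2, 123 and 66.9 CPM against 467, 413 and 356 CPM (log2 fold change 2.12, SE 0.20, adjusted p = 6.88e-05). For these genes the libraries within a group lay close together and the groups lay far apart. They were named for the smallest p in the list, a choice that favours such a pattern. Ect2, Cenpf and Mki67 were the measured members that did not pass, with log2 fold changes of 0.45, 1.56 and 2.02. In fits that left out 1 library at a time, between 29 and 33 members were called.

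Promoter sequences are shown for genes of the lists whose members moved together, as letters that a reader can search. The table of RefSeq promoters (assembly GRCm38.p6, 250 bases before to 50 after the start) held 28 of the 34 mitosis genes, and 22 of these (78.6%) had TTTGAA, the cell cycle homology region, on either strand, against 14.7% of the 9957 tested genes with a promoter in the table and 20.2% of all 27025 genes in it. Cdca8 (chr4:124936868-124937167, minus strand) and Ube2c (chr2:164769679-164769978, plus strand) each had a single match, printed in capitals; the promoter of Ccnb1 had none of these letters in its window. A match is a run of letters and not a measured binding site.
Cdca8: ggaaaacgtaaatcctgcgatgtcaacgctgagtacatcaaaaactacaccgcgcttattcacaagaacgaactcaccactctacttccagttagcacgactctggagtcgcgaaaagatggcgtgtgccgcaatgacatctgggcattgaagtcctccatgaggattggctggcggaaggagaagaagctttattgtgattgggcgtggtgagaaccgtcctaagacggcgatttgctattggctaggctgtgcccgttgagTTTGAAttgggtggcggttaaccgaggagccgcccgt
Ube2c: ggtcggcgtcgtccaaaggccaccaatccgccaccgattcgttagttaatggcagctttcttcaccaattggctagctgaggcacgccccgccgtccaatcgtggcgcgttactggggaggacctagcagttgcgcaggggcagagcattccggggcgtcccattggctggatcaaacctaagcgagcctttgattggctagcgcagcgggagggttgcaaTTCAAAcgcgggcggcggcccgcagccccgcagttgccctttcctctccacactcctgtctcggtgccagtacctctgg

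DNA replication and nucleotide supply rose with mitosis, at smaller folds: 27 of 34 measured members were called higher, none lower, with a median of 0.92. Rrm1, the large subunit of ribonucleotide reductase, which makes deoxynucleotides, had 366, 414 and 335 CPM in control CD41- cells and 1147, 1136 and 951 CPM in depleted CD41+ cells (log2 fold change 1.54, SE 0.15, adjusted p = 6.88e-05). Tk1, thymidine kinase, rose by 1.52 (SE 0.20, adjusted p = 0.000376), and Rfc5, a subunit of the clamp loader, by 1.14 (SE 0.15, adjusted p = 0.000382). All 6 measured subunits of the Mcm2 to Mcm7 helicase were called, with log2 fold changes from 0.77 for Mcm4 to 1.19 for Mcm5. The members that did not pass were Gins2, Pole, Rfc3, Ung, Orc1, Gins3 and Pola1, all with positive values between 0.14 and 1.46. The E2F letters TTTGGCGC or TTTCCCGC were searched in the promoters of 28 genes of the list. A match stood in those of 10 genes (35.7%), against 3.41% of the tested genes and 1.80% of all genes of the table. Mcm5 (chr8:75109259-75109558, plus strand), the gene of the list with the smallest p among those with a match, is shown with the match in capitals; Rrm1, Tk1 and Rfc5 had no match of these letters.
Mcm5: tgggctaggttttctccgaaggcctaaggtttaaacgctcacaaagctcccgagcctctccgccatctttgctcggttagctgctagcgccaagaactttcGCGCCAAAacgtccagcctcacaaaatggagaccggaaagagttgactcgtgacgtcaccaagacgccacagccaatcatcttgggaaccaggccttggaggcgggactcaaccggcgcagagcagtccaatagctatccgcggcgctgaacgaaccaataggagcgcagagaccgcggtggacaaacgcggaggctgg

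G1 regulators moved in both directions. Of 19 measured members, Ccne2, E2f8, Ccnd3, Cdk4 and Cdk2 rose and Rbl2 and Ccnd2 fell. Ccne2, a cyclin of S phase entry, went from 70.7, 56.0 and 39.4 CPM to 192, 145 and 182 CPM, with no overlap (log2 fold change 1.64, SE 0.21, adjusted p = 0.000309). Cdk4, the kinase partner of the D-type cyclins, rose by 0.59 (SE 0.13, adjusted p = 0.0106). Rbl2, the p130 pocket protein of resting cells, had a log2 fold change of -1.18, and Ccnd2 one of -0.80; fits that left out replicate 1 or 3 of either group called 1 of them, and the fit with the neutrophil covariate called neither. Ccnd1 (-0.50), Cdk6 (-0.17) and Myc (0.04) did not pass.

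The proteasome, the protease that degrades ubiquitinated proteins, was the third list with most members called: 23 of 30 measured subunits rose, none fell, and the median was 0.69. Psmd6, a subunit of the regulatory lid, had 162, 172 and 138 CPM in control CD41- cells and 426, 320 and 326 CPM in depleted CD41+ cells (log2 fold change 1.18, SE 0.17, adjusted p = 0.000738). Psmd14, the lid's deubiquitinase, went from 235, 177 and 147 CPM to 533, 370 and 383 CPM (log2 fold change 1.20, SE 0.19, adjusted p = 0.00153). The depleted CD41+ libraries lay above all control libraries for both subunits. All 6 ATPases of the base, Psmc1 to Psmc6, were called, with values from 0.81 to 1.02. Leaving out 1 library at a time gave 16 to 24 called members.

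Energy metabolism split by genome. Nuclear-encoded subunits of oxidative phosphorylation rose in 14 of 28 cases and fell in none, with a median of 0.57, led by Atp5o of the ATP synthase (log2 fold change 0.92, SE 0.16, adjusted p = 0.00214) and the electron carrier cytochrome c, Cycs (1.12, SE 0.21, adjusted p = 0.00346). Without control CD41- replicate 3, 8 of them were called, and with the neutrophil covariate 9. Genes of the mitochondrial genome went the other way: 4 of 7 measured ones fell, none rose, and the median was -0.74. The cytochrome oxidase subunit mt-Co1 had 7815, 10455 and 9207 CPM in control CD41- cells and 3257, 3043 and 3707 CPM in depleted CD41+ cells, where every library was below the lowest control library by a factor of more than 2 (log2 fold change -1.46, SE 0.17, adjusted p = 0.000184). All counts on the mitochondrial genome together made up 3.46%, 4.37% and 3.89% of the control CD41- libraries and 2.35%, 2.10% and 3.20% of the depleted CD41+ libraries. Glycolysis was mixed, with Pfkp, Slc16a1, Eno1, Ldha and Pgk1 higher and Aldoc and Ldhb lower among 20 measured members. Aldoc, the aldolase C isozyme, fell from 80.0, 66.2 and 46.5 CPM to 5.56, 12.5 and 12.2 CPM (log2 fold change -2.55, SE 0.39, adjusted p = 0.000987), and Pfkp, the platelet-type phosphofructokinase, rose by 1.05 (SE 0.15, adjusted p = 0.000751). Lactate dehydrogenase thus differed in subunit direction, with Ldha at 0.73 and Ldhb at -0.83.

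Protein production genes also went in different directions. Ribosome biogenesis genes rose in 8 of 26 cases and fell in none (median 0.54), among them Nhp2, a core protein of the pseudouridylation complex (log2 fold change 0.97, SE 0.15, adjusted p = 0.00128) and the nucleolar proteins Npm1 (0.82) and Ncl (0.88). This count was 4 without control CD41- replicate 2 and 5 with library size as the only scaling or with the 6 libraries alone, and 3 with the neutrophil covariate. Cytosolic ribosomal proteins fell in 6 of 30 cases and rose in none (median -0.44), among them Rpl13 (-0.69, SE 0.13, adjusted p = 0.00343) and Rps14 (-0.81). This count was 13 without depleted CD41+ replicate 1 and also without a filter, 2 with the 6 libraries alone and 3 with the neutrophil covariate, and the median was -0.22 without control CD41- replicate 2. Chaperones and foldases of the endoplasmic reticulum rose in 6 of 22 cases of the unfolded protein response list, Pdia3, Dnajb11, Hsp90b1, Hspa5, Sdf2l1 and the transcription factor Xbp1, while Ddit3, a transcription factor of prolonged stress, fell (-1.28); the count of 6 was 3 when replicate 3 of either group was left out and with the neutrophil covariate, and the call of Ddit3 was lost in at least 5 of the fits that left out a library. Of 22 cholesterol synthesis genes, 4 fell and none rose; Srebf2, Insig1 and Hsd17b7 were among them, with Srebf2, the transcription factor that drives the pathway, at -1.09 (SE 0.21, adjusted p = 0.00448). Without depleted CD41+ replicate 3, 1 of the 4 was called, and Hsd17b7 also lost its call without replicate 2 of that group or control CD41- replicate 3.

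Genes of long-term stem cells fell: 13 of 23 measured members were lower, 1 was higher, and the median was -1.01. Hlf, a transcription factor that marks stem cells (chromosome 11, 90336536 to 90390895, GRCm38), had 343, 252 and 281 CPM in control CD41- cells and 40.0, 82.3 and 73.1 CPM in depleted CD41+ cells. The highest depleted CD41+ library was less than 1 in 3 of the lowest control library (log2 fold change -2.12, SE 0.23, adjusted p = 0.000124). Procr, the endothelial protein C receptor used to sort stem cells, went from 77.8, 109 and 96.6 CPM to 15.6, 27.4 and 26.2 CPM (log2 fold change -1.97, SE 0.23, adjusted p = 0.000215). Pdzk1ip1, a small membrane protein enriched in stem cells, fell by 1.77 (SE 0.21, adjusted p = 0.000215). Mllt3, Sult1a1, Vldlr, Angpt1, Gata3, Hoxa9, Ndn, Meis1, Ly6a and Cd34 were the other members called lower. Cd34, at -0.87, is known to be low on mouse long-term stem cells, so its fall goes against the direction the list's name gives. Ctnnal1, alpha-catulin, was the member that rose (1.10). Mecom (-0.91), Prdm16 (-1.01) and Fgd5 (-0.69) did not pass. Without depleted CD41+ replicate 3, and likewise with the neutrophil covariate, 8 members were called lower.

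Of 15 measured quiescence genes, Rgs1, Txnip, Mxd4 and Foxo3 fell and none rose (median -0.78). Txnip, the thioredoxin-interacting protein that limits glucose uptake, had 533, 726 and 718 CPM in control CD41- cells and 271, 152 and 157 CPM in depleted CD41+ cells (log2 fold change -1.79, SE 0.21, adjusted p = 0.000215). Rgs1, a regulator of G protein signalling, fell by 2.29 (SE 0.27, adjusted p = 0.000215). The cyclin-dependent kinase inhibitors Cdkn1a (-0.47), Cdkn1b (-1.20) and Cdkn1c (-0.55) did not pass. Without control CD41- replicate 3, 2 members were called. Foxo3, a transcription factor of quiescence, lost its call when replicate 1 or 3 of either group was left out.

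**Figure D2:**
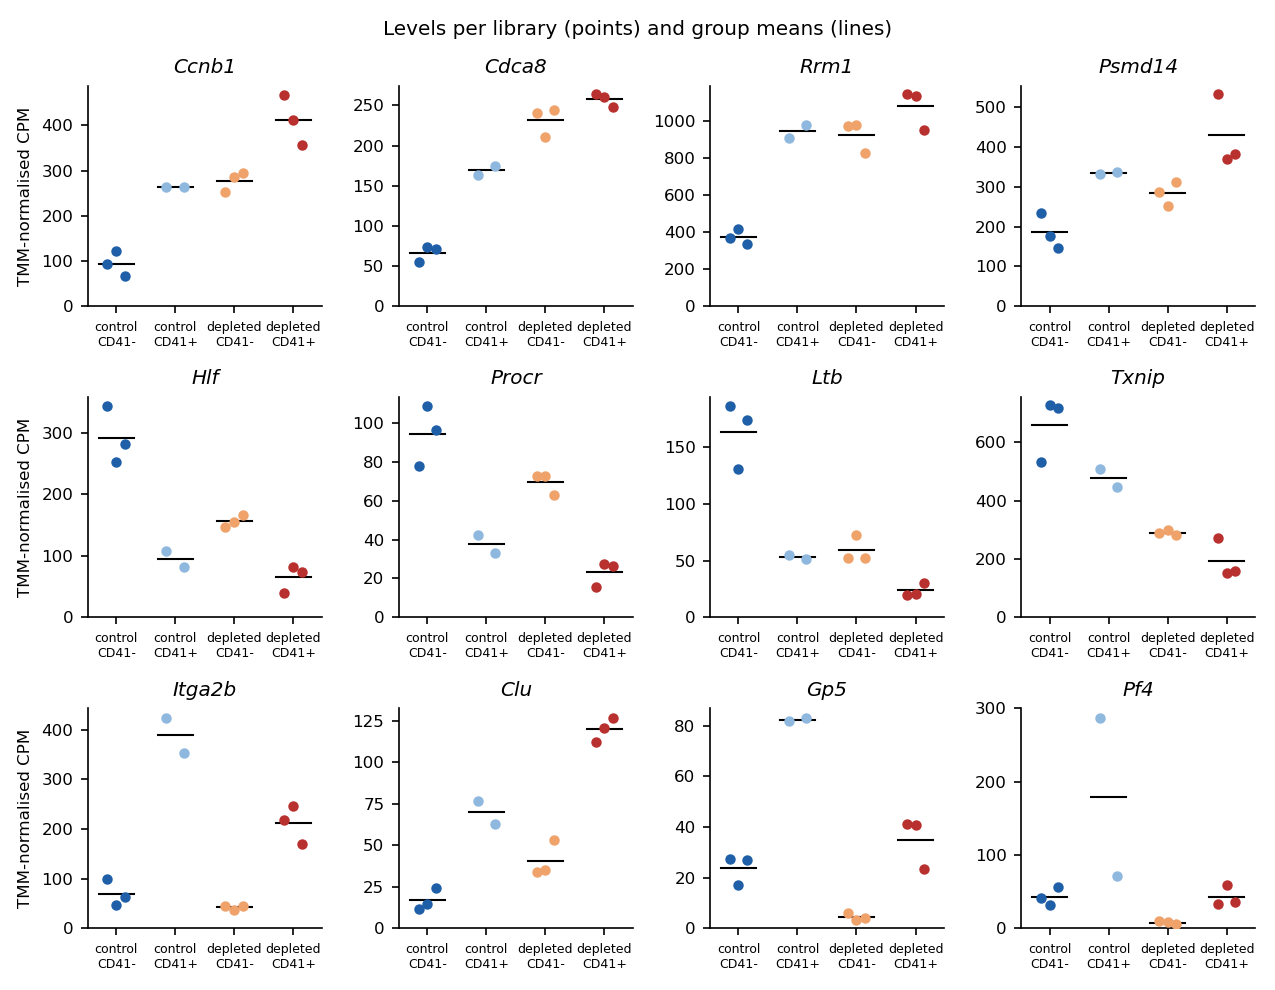
Level of 12 genes in every library of the 4 groups (points, TMM-normalised CPM on linear axes from 0, lines at group means). The cell cycle genes, Psmd14 and Clu are highest in depleted CD41+ cells and lowest in control CD41- cells, Hlf, Procr, Ltb and Txnip run the other way, and Pf4 has the same mean of 42.8 CPM in the groups compared while its control CD41+ mean is 179 CPM.

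Lymphoid priming, the low transcription of lymphocyte genes in stem cells, was lower for 5 of 15 measured members, with none higher and a median of -0.33. Ltb, lymphotoxin beta, had 186, 131 and 174 CPM in control CD41- cells and 20.0, 20.97 and 30.3 CPM in depleted CD41+ cells, and shared the smallest adjusted p of the comparison with Cdca8 (log2 fold change -2.76, SE 0.24, adjusted p = 3.87e-05). Flt3, a receptor tyrosine kinase of multipotent and lymphoid progenitors, went from 96.0, 136 and 172 CPM to 24.5, 34.1 and 15.4 CPM (log2 fold change -2.44, SE 0.34, adjusted p = 0.000583). Cd27, Satb1 and Bcl11a fell by 1.48, 2.46 and 0.86. The same 5-member count was obtained in every fit that left out a library. None of 14 measured myeloid priming genes passed edgeR's test, and 1 had an unadjusted p below 0.05; their median was 0.65. Prtn3, proteinase 3, had the smallest adjusted p of them, 0.139, at -0.73. DESeq2 called none, the fit without a filter called 6 higher and 1 lower, and with the neutrophil covariate 2 were lower and the median was -0.32.

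Interferon-stimulated genes, which form an antiviral programme under transcription factors such as IRF9, were lower for 9 of 32 measured members, and none was higher; the median was -0.86. Ifi44 had 157, 314 and 176 CPM in control CD41- cells and 45.6, 59.2 and 49.5 CPM in depleted CD41+ cells (log2 fold change -2.05, SE 0.27, adjusted p = 0.000376). The transcription factors Irf1 (-1.65, SE 0.22, adjusted p = 0.000412) and Irf9 (-1.30, SE 0.19, adjusted p = 0.000815) fell as well. Control CD41- replicate 2 had the highest level of all 3, and without it 4 members were called. Ddx58, the RNA sensor RIG-I, went from 82.0, 107 and 134 CPM to 21.1, 52.7 and 49.8 CPM (log2 fold change -1.31, SE 0.28, adjusted p = 0.00725). The interferon response motif searched was GAAA followed after any 2 bases by another GAAA on either strand. Of 25 genes of the list with a promoter in the table, 17 had a match (68.0%), against 4.02% of the tested genes and 3.99% of all genes of the table. Ddx58 (chr4:40239776-40240075, minus strand), the member with the smallest p among those with a match, is printed with the match in capitals.
Ddx58: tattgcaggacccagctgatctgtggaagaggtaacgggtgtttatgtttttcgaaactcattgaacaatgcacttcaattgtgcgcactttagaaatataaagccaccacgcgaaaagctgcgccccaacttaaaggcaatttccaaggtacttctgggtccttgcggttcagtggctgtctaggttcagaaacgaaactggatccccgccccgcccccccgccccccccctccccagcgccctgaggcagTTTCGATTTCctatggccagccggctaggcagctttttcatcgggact

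MHC class I and peptide transport genes fell in 6 of 16 cases, none rose, and the median was -0.40. H2-Q6 had 336, 329 and 354 CPM in control CD41- cells and 117, 129 and 123 CPM in depleted CD41+ cells (log2 fold change -1.46, SE 0.14, adjusted p = 6.88e-05). H2-K1, a classical class I heavy chain, went from 3092, 3210 and 2989 CPM to 2037, 1881 and 1795 CPM (log2 fold change -0.70, SE 0.14, adjusted p = 0.00415). Class I genes are near-identical copies of each other, so reads could be split or lost between them in the authors' counting and their single values are uncertain. B2m, the shared light chain, fell by 0.55 (adjusted p = 0.0496). The count was 3 if control CD41- replicate 3 or the second depleted CD41+ library was left out. Of 15 NF-kB feedback genes, Nfkbia, Relb, Nfkbie and Rel fell and none rose (median -0.59), with Nfkbia, the inhibitor induced by NF-kB, at -0.76 (SE 0.16, adjusted p = 0.00758); without control CD41- replicate 2 or 3, 2 of them were called, and Relb and Nfkbie also lost their calls without depleted CD41+ replicate 2.

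In the platelet lists the CD41 term and the depletion term had medians of opposite sign. Of 19 measured platelet receptors and integrins, Itga2b, Cd9, Gp1bb and F2r rose; the median was 0.54, that of the CD41 average 0.80 and that of the depletion average -0.71. The terms add for each gene, but their medians over a list do not. The count of 4 higher receptors was 3 when replicate 1 or 2 of the control CD41-, depleted CD41+ or depleted CD41- cells was dropped. It was also 3 with library size as the only scaling, in the fit that was not robust, with voom and with the 6 libraries alone. Itga2b and Cd9 kept their calls in all of these fits. Of 22 granule and cytoskeleton genes, Clu, Cavin2, Tuba8, Timp3, Serpine2, Vwf and Rap1b rose and none fell (median 0.35; median of the CD41 average 1.001, of the depletion average -0.17). Clu, clusterin, had 11.6, 14.7 and 24.3 CPM in control CD41- cells and 112, 121 and 127 CPM in depleted CD41+ cells (log2 fold change 2.83, SE 0.28, adjusted p = 8.27e-05), and it rose in both averages, by 1.81 and 1.02. Cavin2, a caveolar protein, had 48.1, 34.6 and 53.5 CPM against 191, 203 and 151 CPM (log2 fold change 1.999, SE 0.22, adjusted p = 0.000156), and nearly all of it lay in the CD41 average (2.12, against -0.12 for depletion). Tuba8, an alpha-tubulin of platelets, was likewise higher by 2.62 (SE 0.34, adjusted p = 0.000342), with 2.83 in the CD41 average. Vwf, von Willebrand factor, rose by 1.52 (SE 0.31, adjusted p = 0.00574).

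Pf4, platelet factor 4 (chromosome 5, 90772435 to 90773383, GRCm38), had 41.0, 31.1 and 56.2 CPM in control CD41- cells and 33.4, 58.8 and 36.1 CPM in depleted CD41+ cells, and the groups overlapped. The log2 fold change was 0.03 (SE 0.44, adjusted p = 0.971). In the other groups its level was 286 and 71.0 CPM in control CD41+ cells and 9.98, 8.17 and 5.20 CPM in depleted CD41- cells. The CD41 average was 2.26 (adjusted p = 0.00387) and the depletion average -2.23 (adjusted p = 0.00289), so the terms cancelled to within 0.03. The control CD41+ mean rests on 2 libraries that differed by a factor of 4. Treml1, a receptor of platelet granules, Gp5, a subunit of the von Willebrand factor receptor, Plek, pleckstrin, and Aldh1a1, retinaldehyde dehydrogenase, had the same opposite signs and did not pass in the comparison of the far corners, with log2 fold changes of 0.48, 0.54, -0.16 and 0.08. A difference near 0 with these standard errors (0.20 to 0.48) does not show equal levels. Itga2b, with 2.41 and -0.79, kept a difference that passed.

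**Figure D3:**
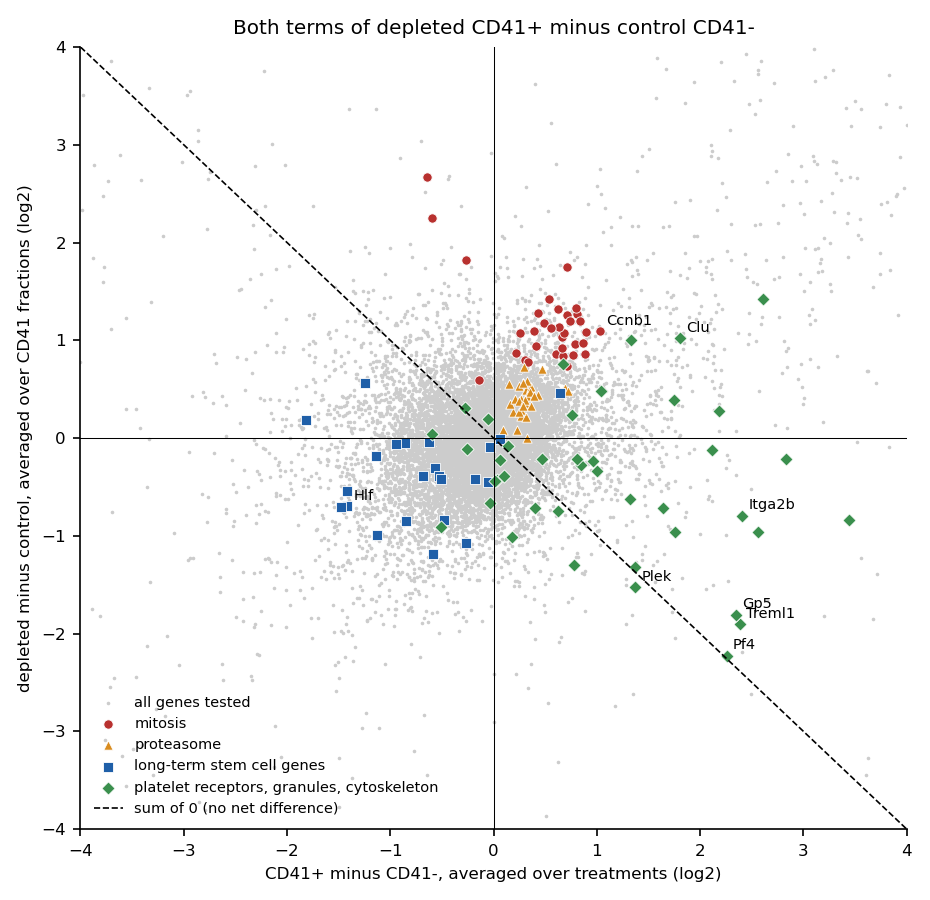
Each point is a gene, with the CD41 difference averaged over treatments on the horizontal axis and the depletion response averaged over CD41 fractions on the vertical axis (both log2); the dashed line marks a sum of 0, and 102 genes lie beyond the axis limit of 4. Mitosis and proteasome genes lie mostly at upper right, long-term stem cell genes mostly at lower left, and Pf4, Treml1, Gp5 and Plek lie along the dashed line at lower right.

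The count of genes in each arrangement followed from the same fit. The CD41 average called 724 genes (5.38%; 2.73% higher, 2.65% lower) and the depletion average 851 (6.33%; 3.6% higher, 2.73% lower). Both averages called 172 genes with the same sign, 106 higher and 66 lower, and the sum passed for all of them. Opposite signs were called for 18 genes, 7 with CD41 up and depletion down and 11 in the other order, and 2 of them passed in the sum, Itga2b (1.62) and Socs2 (1.08). The sum passed for 391 genes called in the CD41 average only, 506 in the depletion average only and 824 in neither, while 159 genes of the CD41 average and 171 of the depletion average did not pass in the sum. These comparisons share libraries, so their counts are not independent.

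Among genes where both terms pointed the same way, Plek2, a pleckstrin homologue, had 0, 0.524 and 0 CPM in control CD41- cells and 12.2, 14.5 and 11.4 CPM in depleted CD41+ cells (adjusted p = 0.000492), with 2.14 and 3.35 CPM in control CD41+ cells and 6.11, 5.03 and 9.70 CPM in depleted CD41- cells. Both intermediate groups thus lay between the corners. Col18a1, a basement membrane collagen, had 4.68, 0.785 and 0.730 CPM against 34.5, 29.4 and 42.0 CPM (log2 fold change 4.10, SE 0.56, adjusted p = 0.000533). In the other direction, Crebrf, a regulator of CREB3 proteins, went from 54.5, 33.2 and 50.3 CPM to 4.45, 5.88 and 6.99 CPM (log2 fold change -2.93, SE 0.34, adjusted p = 0.000184), and the noncoding host gene Mir99ahg from 29.4, 35.9 and 31.4 CPM to 2.22, 4.31 and 4.08 CPM (-3.06, SE 0.43, adjusted p = 0.000576). Fmo1, Gpx8, Mlf1 and Aunip were the other named genes higher by both terms, and Gm43788, D930016D06Rik, Gm26624 and Paqr5 the others lower by both.

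Of the 11 genes called with opposite signs in the reverse order, lower with CD41 and higher with depletion, the naming rule took 6. These were Phldb2, Col4a2, Upf3b, Wdr60, Dync1h1 and Taf1, with sums between -0.47 and 0.00. Socs2, which passed in the sum, had the same order of signs. Dync1h1, the heavy chain of cytoplasmic dynein, had 70.1, 33.0 and 74.2 CPM in control CD41- cells and 23.4, 57.8 and 77.8 CPM in depleted CD41+ cells, which overlapped, while control CD41+ cells had 7.48 and 18.8 CPM. The 2 control CD41+ libraries were the lowest for all 6 genes taken by the rule. These libraries enter both averages with opposite signs, so the rule itself favours genes that are low in them. Genes that passed only as a sum included Samm50, which inserts beta-barrel proteins into the mitochondrial outer membrane (141, 165 and 108 CPM against 256, 262 and 239 CPM, log2 fold change 0.87, SE 0.17, adjusted p = 0.00441), and the replication and repair genes Pold2 (0.83), Brip1 (1.50) and Parpbp (1.52). H2-K1, Pglyrp2, Aftph, Rnf125, Fam181b and Nwd1 were lower in the same way, by 0.70 to 2.44.

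Among genes of cytokine signalling, Socs2, a feedback inhibitor induced by STAT5, had 46.2, 53.1 and 45.7 CPM against 107, 93.1 and 108 CPM (log2 fold change 1.08, SE 0.17, adjusted p = 0.00114). Its terms were opposed, -0.66 for CD41 and 1.74 for depletion, and depleted CD41- cells had the highest levels, 176, 178 and 222 CPM. Of 19 JAK-STAT genes, 5 fell, Stat2, Sh2b3, Stat5b and Jak3 among them, and Socs2 rose; if control CD41- replicate 3, depleted CD41+ replicate 1 or its replicate 3 was left out, 1 member was called lower, as also with voom, with the 6 libraries alone and with the neutrophil covariate. Of 24 measured receptor tyrosine kinases, the group named in the series title, 12.5% were called, against 14.1% of all genes tested. Among them, Flt3 fell and Kdr and Flt4, vascular endothelial growth factor receptors, rose. Kdr had 3.58, 2.36 and 6.57 CPM against 7.79, 27.6 and 24.2 CPM (adjusted p = 0.0259); both of the latter lost their call if control CD41- replicate 1 or 2, or else depleted CD41+ replicate 2 or 3, was left out. Insr (0.24), Axl (0.23), Kit (-1.22) and Tek (-0.85) did not pass. Of 23 PI3K pathway genes, Pik3r1, the regulatory subunit (-1.37, SE 0.24, adjusted p = 0.0022), and Foxo3 fell. Their called share was 8.70%, against 14.1% of all genes tested called and 6.27% called lower. Only 1 member was called lower if control CD41- replicate 1 or 3 or depleted CD41+ replicate 1 was left out. Of 23 genes of ERK feedback and the immediate early response, Jun, Dusp2 and Ier2 fell and none rose. The called share of this list lay below the 14.1% of all genes tested that were called, and above the 6.27% called lower. Jun had 98.5, 62.6 and 85.4 CPM against 16.7, 18.8 and 23.02 CPM (log2 fold change -2.05, SE 0.24, adjusted p = 0.000215). Ier2 lost its call in 5 of the fits that left out a library (control CD41- replicate 1 or 3, depleted CD41+ replicate 1 or 2, or control CD41+ replicate 1).

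Among 15 measured megakaryocyte transcription factors, Gata1 rose and Lyl1, Nfe2 and Meis1 fell. The count of 3 lower was 2 without control CD41- replicate 1 or 3, with the 6 libraries alone and with the neutrophil covariate. Lyl1 and Nfe2 kept their calls in all 11 fits that left out a library. Gata1, the master regulator of the erythroid and megakaryocyte lineages, had 30.8, 29.6 and 6.81 CPM in control CD41- cells and 94.5, 77.2 and 93.5 CPM in depleted CD41+ cells (log2 fold change 1.98, SE 0.41, adjusted p = 0.00694), nearly all in the CD41 average (2.09). Nfe2, a factor of late megakaryocyte maturation, fell by 0.73 (SE 0.15, adjusted p = 0.00646). Fli1 (0.33), Runx1 (-0.12) and Gfi1b (0.36) did not pass.

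Of 9 measured members of the list headed nuclear long noncoding RNAs, 4 fell, Malat1, Kcnq1ot1, Gas5 and Snhg8. None was higher, and the median was -0.93. The heading is only a label, and where these RNAs lie in the cell was not measured. Malat1 had 2702, 2979 and 1455 CPM in control CD41- cells and 284, 83.9 and 282 CPM in depleted CD41+ cells (log2 fold change -3.47, SE 0.62, adjusted p = 0.0082). In the other groups it had 366 and 190 CPM (control CD41+) and 477, 151 and 329 CPM (depleted CD41-), so the control CD41- libraries stood above all 8 others. The mitochondrial share, given above, was higher in the control CD41- libraries than in the CD41+ libraries of either treatment, while depleted CD41- replicates 1 and 3, at 3.60% and 3.56%, lay above control CD41- replicate 1. The part of these shares in other results was not tested. The library protocol has no step that marks the strand, so reads of Kcnq1ot1 and of the gene Kcnq1, which it overlaps in antisense, cannot be told apart.

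Some marker lists of other cells had higher summed levels in the depleted CD41+ libraries than in the control CD41- libraries, and others did not. The summed level of 12 neutrophil markers was 8513, 13754 and 14791 CPM in control CD41- cells and 50715, 15167 and 53151 CPM in depleted CD41+ cells; all 12 were detected in all 6 libraries, and their median log2 fold change was 1.68. None passed edgeR's test and 1 had an unadjusted p below 0.05, while DESeq2 called 1 higher, the 6 libraries alone 6 and the fit without a filter on low counts all 12. Replicate 2 of the depleted CD41+ cells lay near the control CD41- libraries and the others did not. The neutrophil sums of the other groups were 24552 and 85454 CPM (control CD41+) and 37305, 4204 and 21518 CPM (depleted CD41-). The sum of 14 endothelial and stromal markers was 142 to 186 CPM in control CD41- cells and 383 to 618 CPM in depleted CD41+ cells, with 8 of 11 tested members higher and Emcn, which stem cells also express, lower (-0.74), a call lost in at least 10 of the 11 fits with a library left out. Pecam1 and Emcn made up most of the control CD41- sums, and the largest member of each depleted CD41+ sum was Cxcl12, a chemokine of stromal cells. Cxcl12 had 1.38, 1.83 and 0.486 CPM against 311, 136 and 282 CPM and did not pass (adjusted p = 0.0903). It also varied within another group, with 1.53, 0.209 and 284 CPM in depleted CD41- cells. If control CD41- replicate 1 or the third depleted CD41+ library was left out, 3 of the 8 were called. Eosinophil markers summed to 24.5, 8.38 and 0.243 CPM against 825, 237 and 228 CPM, with Prg2, a granule protein, making up most of it.

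**Figure D4:**
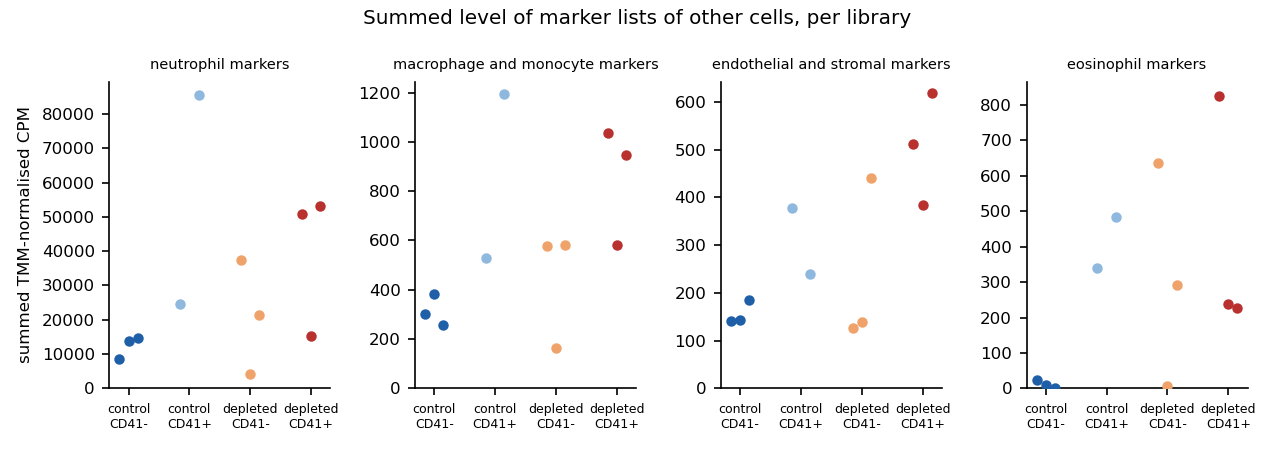
Summed level of 4 marker lists of other cells in every library (points, TMM-normalised CPM, linear axes from 0). Depleted CD41+ replicates 1 and 3 hold 50715 and 53151 CPM of neutrophil markers against 15167 CPM in replicate 2, and eosinophil, macrophage and endothelial or stromal sums are higher in all 3 depleted CD41+ libraries than in the control CD41- libraries.

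Of the macrophage and monocyte list, with sums of 255 to 383 CPM against 581 to 1037 CPM, Mrc1 was called (3.48, SE 0.66, adjusted p = 0.00384). Erythroid markers summed to 2953 to 4831 CPM against 4072 to 5432 CPM, and most of each sum was Car2. Epor, the erythropoietin receptor, was the called erythroid member (0.99, adjusted p = 0.038), a call that 5 of the 11 fits with a library left out did not make. The shares called higher were 10.0% of the macrophage and monocyte markers and 8.33% of the erythroid markers, against 7.82% of all genes tested. B cell markers (55.3 to 113 CPM over the 6 libraries) and T and NK cell markers (107 to 133 CPM) had no called member (1 of 7 and 0 of 3 tested had an unadjusted p below 0.05, and DESeq2 called none); Ncr1 and Gzma were at 0 counts in all 6 libraries, and most of the T and NK sum was Nkg7. Mast cell and basophil markers summed to 10.2, 52.6 and 555 CPM against 187, 47.0 and 84.8 CPM, with none called by edgeR or DESeq2 and none at an unadjusted p below 0.05; 3 were called lower without a filter. The part of these cells in the results above was not tested, apart from the fit with a neutrophil score, in which 31 mitosis, 23 replication and 17 proteasome genes were called higher and 8 stem cell genes lower.

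The genes with the largest increases included several of these. Ibsp, bone sialoprotein, had no count in the control CD41- libraries and 27.8, 18.8 and 33.8 CPM in the depleted CD41+ libraries, at least 103-fold higher, where the bound sets the control group at 3 counts over its 3 libraries (0.259 CPM). The eosinophil granule gene Prg3 was at least 85.1-fold higher, the angiotensinogen gene Agt at least 57.1-fold, the flavin monooxygenase Fmo1 at least 48.6-fold and the insulin-like growth factor binding protein Igfbp2 at least 39.4-fold, by the same bound. Igfbp3, Colec12, Adamts1, Tnc, Ccn5 and Msr1 were bounded at 23.3-fold to 31.5-fold, and Kitl, stem cell factor, at 19.8-fold. These are all genes near the floor in controls, and 39 called genes had no count there. Prg3 lost its call in 8 of the 11 fits that left out a library and Prg2 in 9. Agt lost it without depleted CD41+ replicate 1, where it had 40.0 CPM against 1.76 and 2.62 CPM in the others, and without control CD41- replicate 1 or 3. Igfbp3, Colec12, Tnc, Kitl and Ccn5 lost it without depleted CD41+ replicate 3, Adamts1 without control CD41- replicate 3, and Ccn5 without any of the 3 control CD41- libraries.

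Of the 12 largest decreases, 4 were annotated as protein-coding, 2410004P03Rik, Speg, Zfp37 and Ccser1, and the others as noncoding or unclassified transcripts. Gm43788 and Gm37470 had no count in depleted CD41+ cells and were at least 22.2-fold and 17.5-fold lower there, with the same bound of 3 counts over the group (0.318 CPM). D930016D06Rik, 5330406M23Rik and Gm26624 had between 5.497 and 19.4 CPM in the control CD41- libraries and at most 0.980 CPM in the depleted CD41+ libraries. Without depleted CD41+ replicate 2 the calls of Gm37470, 6820402A03Rik, 2410004P03Rik and Speg were lost, and without replicate 3 those of Gm37470, 6820402A03Rik, Speg and Ccser1. Control CD41- libraries mattered for the same genes other than 2410004P03Rik: replicate 1 for Speg, replicate 2 for Gm37470 and Speg, and replicate 3 for 6820402A03Rik and Ccser1.

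Whether the terms simply add was tested as the difference between the depletion responses of the CD41 fractions. No gene passed in edgeR's quasi-likelihood test, with 825 genes at an unadjusted p below 0.05; DESeq2 called 35 and the fit without a filter on low counts 178. The smallest p-values belonged to Zfp608, Cdca8, Ccnb2 and Rrm1 (adjusted p = 0.304 for each). For Ccnb2, the other B-type mitotic cyclin, the depletion response was 1.78 in CD41- cells and 0.50 in CD41+ cells. Over the mitosis list the median response was 1.56 in CD41- and 0.54 in CD41+ cells, and the median CD41 difference was 1.18 in control and 0.08 in depleted mice; both routes start and end at the same corner groups and add up to the same sum. For the proteasome the medians were 0.38 and 0.45 for depletion in CD41- and CD41+ cells. For long-term stem cell genes they were -0.32 and -0.41. The test of the difference passed for none of these genes.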

How the data were processed

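Gene counts of 11 libraries were analysed. The authors deposited raw counts per gene, one column per library; per the submitters' processing notes, cutadapt, STAR and HTSeq 0.6.1p1 were used with GRCm38 (mm10), and counting options, strand included, were not given in the sources used here. The table held 49585 entries, 24487 of them 0 in every library, and 49326 carried a symbol in GENCODE M21. edgeR 4.0.16 (R 4.3.3) was run with TMM factors (0.911 to 1.06), filterByExpr (minimum count 10, minimum total 15) and robust quasi-likelihood fits over the 4 groups, so that all 11 libraries shared the estimate of spread; 13448 genes with 99.7% of counts stayed. Calls used an adjusted p below 0.05. Standard errors are the absolute log2 fold change divided by the square root of F.

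The members of 35 gene lists were written from general knowledge, and the libraries, lists and rules were chosen with earlier results of these data known. The rule for named genes took the genes of the sort, 12 increases and 12 decreases of largest size (at least 5 CPM, no overlap), up to 3 called members of each list with the smallest p (or the member with the smallest p where none was called), up to 6 genes in each direction for terms that add, cancel or pass only as a sum, and the 4 smallest p-values of the difference of responses. Other list members are given by value. Values of some single list members are not reported here. Promoters printed for Mcm5 and Ddx58 were chosen after the motif search.

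The fit was tested on data simulated from these libraries, with 200 genes changed, fewer than were called in the data. It recovered 2.49% of 1.5-fold, 21.4% of 2-fold and 71.2% of 4-fold changes, and 4.55% of the calls were false. A gene not called is therefore not shown to be unchanged. Bounds from the 3-count floor cover counting error only. No libraries were identical. Alternatives were other scaling, no filter, a fit without robust estimation, DESeq2 1.42.0, limma 3.58.1 voom with quality weights, the 6 libraries alone and each library left out; a covariate for neutrophil transcripts was chosen after seeing the data.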

Additional observations from a re-analysis of the deposited data

How the results depend on the processing

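Called genes numbered 1120 to 1790 when a library was left out (higher 625 to 1048, lower 493 to 813) and 1182 with the neutrophil covariate (649 higher, 533 lower); the 6 libraries alone gave 538 lower genes. Other settings stayed within 1.5 times of 1895, and library size as the only scaling gave 47.1% higher among calls against 55.5%. The CD41 average called 1674 genes without a filter, 1441 with DESeq2, 168 with the covariate and 300 to 788 with a library left out; the depletion average called 1336 without a filter, 1407 with DESeq2 and 291 to 1060 with a library left out, and the difference of responses 178 and 35 (0 in every fit with a library left out). Of 121 named genes called, 96 passed in every fit with a library left out that tested them. One of these, Msr1, was tested in 9 of the 11 such fits. Genes near 0 changed sign: with library size alone Pf4 (-0.0425), Aldh1a1 (-0.0007) and Col4a2 (-0.0689); with voom Plek (0.0334), Phldb2 (0.436), Upf3b (0.0638), Wdr60 (0.14) and Dync1h1 (0.0834); with DESeq2 Wdr60 (0.0191). With a library left out, log2 fold changes ranged from -0.29 to 0.28 for Pf4, -0.0286 to 0.86 for Treml1, -0.34 to 0.19 for Plek, -0.14 to 0.23 for Aldh1a1, -0.96 to 0.81 for Phldb2, -0.22 to 0.33 for Col4a2, -0.24 to 0.17 for Upf3b, -0.20 to 0.23 for Wdr60, -0.46 to 0.21 for Dync1h1, -0.42 to 0.0458 for Taf1 and -5.79 to 6.41 for the mast cell gene Gzmb. The cause of these changes was not tested. No paired analysis was possible because the labels hold running sample numbers, which the groups compared do not share. The replicate numbers used here follow the order of those sample numbers within each group and do not link libraries of different groups. The labels also do not say whether CD41+ and CD41- samples of a treatment came from the same mice, and the CD41 average treats them as separate. Depth limits depleted CD41+ replicate 1 most, at 974196 counts.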

Other observations

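By annotation class, 28 of 1195 tested genes annotated as long noncoding or unclassified were higher in depleted CD41+ cells (2.34%) and 84 were lower (7.03%), with a median log2 fold change of -0.33. Among 11887 protein-coding genes, 1018 rose (8.56%) and 748 fell (6.29%), and their median was -0.04. Counts on long noncoding genes made up 2.59%, 2.65% and 2.39% of the control CD41- libraries and 1.92%, 1.83% and 1.77% of the depleted CD41+ libraries, and the groups did not overlap. The 5 libraries of the other groups lay between 1.78% and 1.997%, below all control CD41- libraries. Cytosolic ribosomal protein genes held 7.71%, 9.87% and 7.43% of counts in control CD41- cells and 6.42%, 5.35% and 5.51% in depleted CD41+ cells.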
